A study of Mus musculus with 19 samples.

Results

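The comparison asked what set the livers of the middle dose of dibenz[a,h]anthracene (DB[a,h]A), 12.5 mg/kg, apart from those of the doses on both sides of it, that is, for values that left dose order. Its members were the 4 arrays labelled 12.50 mg/kg and the 10 arrays at 6.25 mg/kg (5) or 25 mg/kg (5), chosen by the dose in their labels. These were 14 of the 19 arrays of the series. The other 5, at 0 mg/kg, are given as values and entered only an alternative setting of the fits, described near the end. Every animal was a male mouse of the transgenic strain 40.6, 10 weeks old, and a part of its liver was taken 3 days after exposure. The labels name neither the transgene nor what the 0 mg/kg animals received. On each array the RNA of 1 liver carried Cy5 (red), the other channel (Cy3, green) carried reference RNA pooled from 11 mouse cell lines, and the dyes were never swapped. A value is the log2 ratio of liver over reference for a probe, and 200 ng of each liver RNA was labelled.

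DB[a,h]A is a polycyclic aromatic hydrocarbon, a product of incomplete combustion. Compounds of this class bind the aryl hydrocarbon receptor (AhR), which switches on the Cyp1 enzymes that oxidise them, and the oxidised products can bind DNA and activate p53. The adult liver is mostly quiescent and rich in drug-metabolising cytochromes P450, whereas cell lines divide. Genes of division therefore lie far below the reference on these arrays, and liver enzymes far above it.

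The 12.5 mg/kg arrays stood apart from the other treated arrays in brightness before any gene was compared. On slide 1, liver signal was well above background at 38.3% of gene spots on the 12.5 mg/kg array, against 54.8% at 6.25 and 56.3% at 25 mg/kg. On slide 2 the share was 38.4 and 35.5% on the 12.5 mg/kg arrays, against 44.4 and 42.9% at 6.25 and 43.9 and 39.7% at 25 mg/kg. On slide 3 it was 47.1% on the 12.5 mg/kg array, against 49.0 and 50.6% at 6.25 and 51.2 and 48.1% at 25 mg/kg. By this share the 12.5 mg/kg arrays were thus the lowest treated arrays of each of the 3 slides, by a wide margin on slide 1 and a narrow one on slide 3.

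Within slides the share was 7.62 percentage points lower at 12.5 mg/kg (39.8% ± 5.01, SD, n = 4) than at the other doses (48.1% ± 5.36, n = 10). The exact two-sided permutation test of the dose label within slides gave p = 0.00444, the smallest that its 225 assignments allow (adjusted p = 0.0111 over 5 measures). The control arrays had 47.0% ± 7.90 (n = 5), with 52.4 and 56.7% on slide 1, 43.0 and 36.5% on slide 2 and 46.5% on slide 3. On slide 3 the control was thus below the 12.5 mg/kg array. On slide 2 the lower control lay between the 12.5 mg/kg arrays, so low values were not particular to 12.5 mg/kg. Over all slides the reference channel did not show this difference, with 64.8% ± 3.26 of spots at 12.5 mg/kg and 64.3% ± 5.97 at the other doses (difference 0.0412 points, exact permutation p = 0.978). On slide 1 alone its 12.5 mg/kg array was also the lowest, at 67.5% against 75.4 and 73.8%. The bright end of the liver signal, its 90th percentile above local background, was lower by 0.49 on the log2 scale (exact permutation p = 0.00444, adjusted p = 0.0111). The median liver signal above background differed by -0.09 (exact permutation p = 0.396). On slide 1 this median, not logged, was higher on the 12.5 mg/kg array, at 42.5 against 32.5 at 6.25 and 37 at 25 mg/kg. On slide 2 it was 15 and 16 at 12.5 mg/kg, against 16 to 19 at the other doses. On slide 3 it was 22.5, against 22.5 to 29. The slide 1 array was thus low in share and 90th percentile but not in median signal. All 3 arrays at row 2, column 1 of a slide were 12.5 mg/kg arrays, and no other treated array had that place. For those 3 arrays dose and place cannot be told apart.

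**Figure D1:**
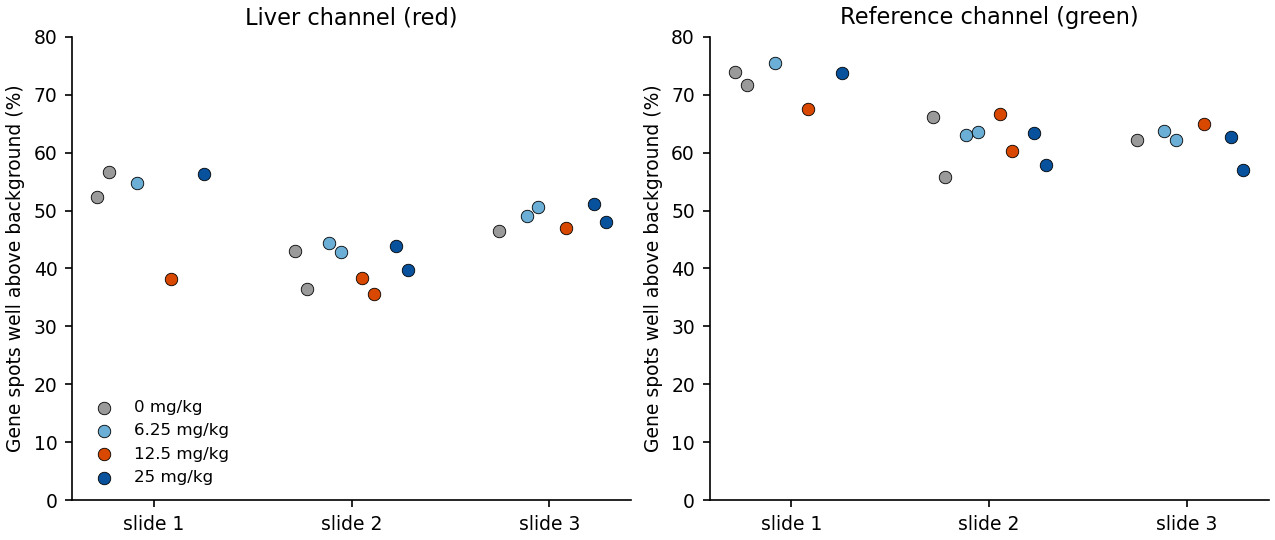
Share of gene spots well above background (%, y axis) on each of the 19 arrays, by slide (x axis) and dose (colour), for the liver channel (left) and the reference channel (right). Each point is 1 array. The orange 12.5 mg/kg points lie below every other treated array of their slide in the liver channel, at 38.3% against 54.8 and 56.3% on slide 1, and in the reference channel they do so on slide 1 only.

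No gene passed the test at 12.5 mg/kg against both other doses. The log2 ratios were fitted with limma, slide as a fixed block, over the 27540 of 55681 probes that were well above background in liver on at least 4 of the 14 arrays. At an adjusted p under 0.05 (Benjamini-Hochberg over all 27540), 0 probes passed (0% of those tested), and the smallest adjusted p was 0.0599. An unadjusted p under 0.05 was reached by 3428 probes (12.4%), of which 1801 were higher at 12.5 mg/kg (6.54%) and 1627 lower (5.91%). These shares are the background against which counts over gene groups are read below. Against 6.25 mg/kg alone 0 probes passed in limma and 3108 (11.3%) reached an unadjusted p under 0.05 (5.22% higher, 6.07% lower), and against 25 mg/kg alone 0 passed and 3032 (11%) did (6.05% higher, 4.96% lower). Between 25 and 6.25 mg/kg, which differ more in dose, 1584 (5.75%) did so (2.64% higher, 3.11% lower) and 0 passed.

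The channels taken alone gave similar numbers. Each was quantile normalised across the treated arrays, which gives all of them the same distribution of intensities. In the liver channel without its reference 3572 probes (13%) reached an unadjusted p under 0.05 (6.11% higher, 6.86% lower). In the reference channel, which held the same RNA on every array, 3486 (12.7%) did (4.74% higher, 7.92% lower), and 0 passed in either. The labels do not say that the animals of a dose were handled apart, and p-values measure the spread between these animals and arrays. The median standard error (SE) of a difference was 0.0978.

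A gene is represented below by its brightest kept probe, which gave 13327 genes. Of these, 9897 (74.3%) had a 12.5 mg/kg mean outside the range between the 6.25 and 25 mg/kg means. Means that differ only by the spread between animals would often do so too. This share alone is therefore no measure of leaving dose order. On every slide, 269 genes (2.02%) had each 12.5 mg/kg array above every other treated array, and 171 (1.28%) had each below. Over probes these shares were 1.75 and 1.12%. Of all 13327, 5927 were higher at 12.5 mg/kg by any amount and 7400 lower, with a median difference of -0.02, and counts of higher and lower members of a list are read against this split. In limma 935 genes (7.02%) were higher and 887 (6.66%) lower at an unadjusted p under 0.05. The genes described next were the 10 of smallest p in each direction, none of which passed.

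Of the genes higher at 12.5 mg/kg, Ccna2 had the smallest p. Ccna2 encodes cyclin A2, which drives DNA synthesis and entry into mitosis. Its log2 ratio on the 12.5 mg/kg arrays was -4.19 (slide 3), -3.96 and -3.88 (slide 2) and -4.58 (slide 1). At 6.25 mg/kg it was -4.96 and -4.64 (slide 3), -4.34 and -4.39 (slide 2) and -5.06 (slide 1), and at 25 mg/kg -4.69 and -4.69, -4.60 and -4.41, and -5.30. Each slide's 12.5 mg/kg arrays lay above its other treated arrays, although the groups overlap when slides are pooled. The fitted difference was 0.54 ± 0.08 (SE), or 1.46-fold, with an adjusted p of 0.0599, just short of the threshold. It was 0.60, 0.51 and 0.55 within slides 1, 2 and 3. Against 6.25 mg/kg it was 0.52 (adjusted p = 0.161) and against 25 mg/kg 0.57 (adjusted p = 0.143). The liver channel alone gave 0.32.

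Ccnb1 encodes cyclin B1, the partner of Cdk1 at mitotic entry. It stood at -3.35 (slide 3), -3.40 and -3.19 (slide 2) and -3.67 (slide 1) at 12.5 mg/kg. At 6.25 mg/kg it was -4.18 and -4.0, -3.74 and -3.74, and -4.30, and at 25 mg/kg -4.20 and -3.88, -4.05 and -3.93, and -3.90, in the same order of slides. All 4 of the 12.5 mg/kg arrays were above all 10 others, without regard to slide. The difference was 0.58 ± 0.10 (1.49-fold, adjusted p = 0.063), and 6.25 and 25 mg/kg had the same mean (-3.99 ± 0.25 and -3.99 ± 0.13, SD, n = 5 each). The controls stood at -3.44 ± 0.30 (n = 5), close to the 12.5 mg/kg mean of -3.40 ± 0.20 (n = 4).

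**Figure D2:**
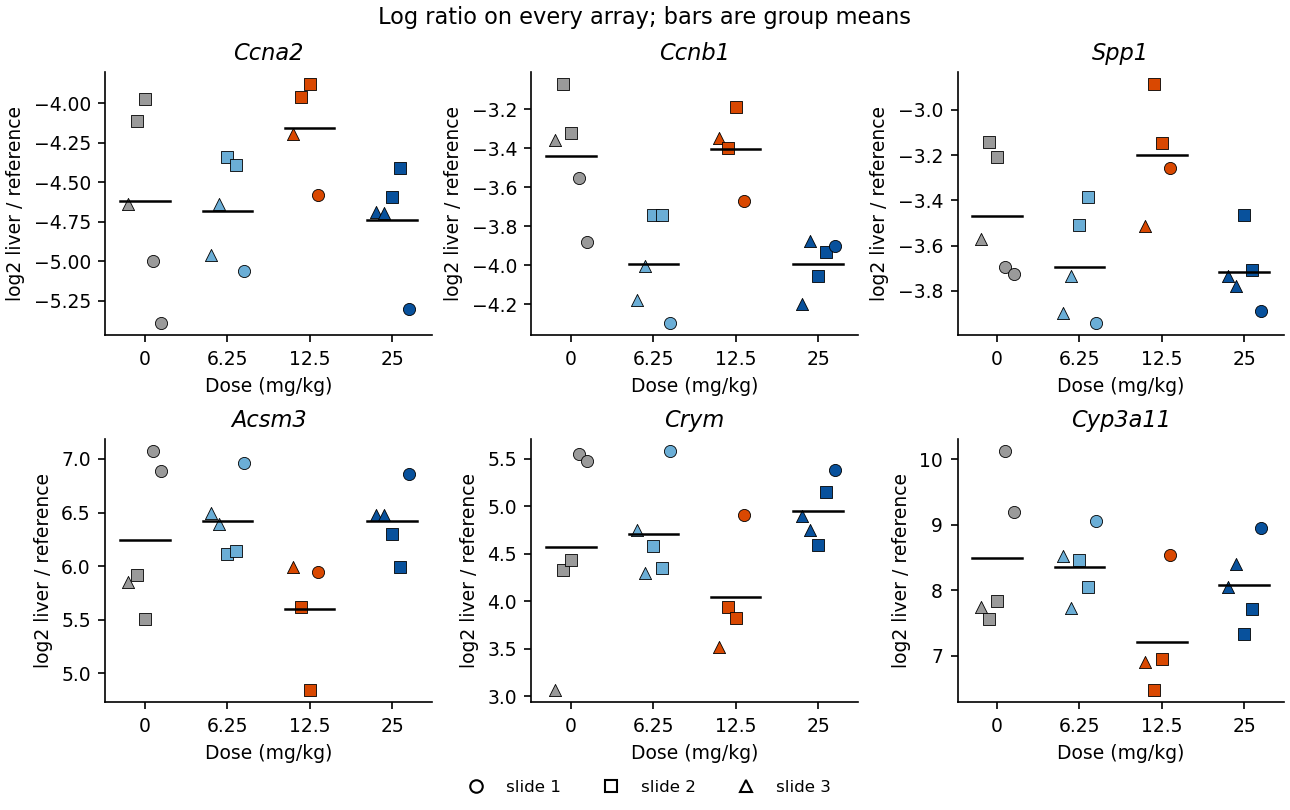
Log2 ratio of liver over reference (y axis) on each array for 6 genes, by dose in mg/kg (x axis), with the slide as the marker's shape and a bar at each group's mean. The 4 Ccnb1 values at 12.5 mg/kg, from -3.67 to -3.19, lie above all 10 values at 6.25 and 25 mg/kg, and Acsm3 and Cyp3a11 lie lower at 12.5 mg/kg within each slide.

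The cell cycle list held 35 genes, of which 30 were measured. It was chosen with earlier results of these data known. At 12.5 mg/kg 27 were higher and 3 lower, and 0 passed. An unadjusted p under 0.05 was reached by 18, all higher, where 7.02% of all genes did so. On every slide, 10 of the 30 lay above all other treated arrays, where 2.02% of all genes did. Shares were larger among all probes as far below the reference as most of this list. Of probes with a log2 ratio from -4 to -2 and under -4, 13.0 and 28.4% lay above on every slide. Of the same probes, 40.0 and 66.4% were higher at an unadjusted p under 0.05 in limma. The median difference was 0.28, beside -0.02 over all genes, and 0.26 and 0.30 against 6.25 and 25 mg/kg taken alone. Between 25 and 6.25 mg/kg the median was -0.03.

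Mki67, the nuclear antigen Ki-67 of dividing cells, had 0.47 ± 0.09 (adjusted p = 0.073), and its further probe 0.46 (adjusted p = 0.165). Cenpe, a motor protein of the kinetochore, had 0.48 ± 0.09 (adjusted p = 0.081). Mki67 stood at -5.08, -4.65, -4.46 and -4.91 on the 12.5 mg/kg arrays of slides 3, 2, 2 and 1. Its mean was -4.77 ± 0.27, against -5.29 ± 0.19 at 6.25, -5.26 ± 0.16 at 25 and -5.26 ± 0.48 in controls. These genes were dim in liver, and Cenpe was well above background on 2 of the 4 arrays at 12.5 mg/kg.

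Brightness differed beside this list. Its median ratio in the other arrays was -3.63, far below the reference, and probes at that level were higher as a whole, as given further on. Within slides 1, 2 and 3 the list's median was 0.29, 0.32 and 0.14, smallest on slide 3. Single members differed from this order, and Ccnb1 had its largest difference on slide 3 (0.72, against 0.43 and 0.57 on slides 1 and 2). The liver channel alone gave a median of 0.10 and the reference channel -0.01. The part of brightness in the list's difference was not tested.

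Promoters of 3 members are shown because genes of late division share short promoter motifs. CCAAT boxes bind the activator NF-Y, and the cell cycle genes homology region (TTTGAA or TTCGAA) is an element through which such genes are held down in resting cells. Sequences are the 200 bases before the RefSeq start in GRCm38.p6, 5′ to 3′ in the gene's direction, with the motifs found on either strand in capitals (ATTGG is CCAAT on the other strand). Ccnb1 is at chr13:100786487-100786686 (minus strand), Mki67 at chr7:135716380-135716579 (minus strand) and Cenpe at chr3:135212363-135212562 (plus strand).
Ccnb1: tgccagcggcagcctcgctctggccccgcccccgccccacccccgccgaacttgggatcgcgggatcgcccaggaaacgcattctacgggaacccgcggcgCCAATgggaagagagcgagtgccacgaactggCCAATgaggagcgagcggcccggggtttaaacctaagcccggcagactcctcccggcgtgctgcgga
Mki67: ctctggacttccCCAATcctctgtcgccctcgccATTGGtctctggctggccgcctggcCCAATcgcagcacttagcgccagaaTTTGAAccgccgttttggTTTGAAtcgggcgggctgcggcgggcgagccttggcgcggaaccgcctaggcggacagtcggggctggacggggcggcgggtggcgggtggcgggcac
Cenpe: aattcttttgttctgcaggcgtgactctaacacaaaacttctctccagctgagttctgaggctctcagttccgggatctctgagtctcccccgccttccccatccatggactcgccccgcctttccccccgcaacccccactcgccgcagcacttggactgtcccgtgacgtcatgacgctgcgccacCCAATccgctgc

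Ccnb1 held 2 CCAAT boxes, 99 and 67 bases before the start. Mki67 held 3 CCAAT and 2 TTTGAA, and Cenpe held 1 CCAAT, 12 bases before the start. CCAAT was present in 20 of the 26 measured list members with a promoter in the table (76.9%), in 32.3% of 10630 measured genes and in 30.0% of all 27025 promoters. TTTGAA or TTCGAA was present in 34.6%, 9.5% and 13.6%. Among the 759 measured genes with a ratio under -2, the list's members included, the shares were 33.2% for CCAAT and 9.62% for the other motif. The motifs do not overlap each other. They were chosen after the values were seen, and a match is a run of letters and no measured site.

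The other genes of the higher group had no single role. Spp1 encodes osteopontin, a secreted phosphoprotein of bile duct and inflammatory cells. It stood at -3.52, -2.89, -3.15 and -3.26 on the 12.5 mg/kg arrays of slides 3, 2, 2 and 1, with a mean of -3.20 ± 0.26, against -3.69 ± 0.24 at 6.25 and -3.72 ± 0.16 at 25 mg/kg. The difference was 0.47 ± 0.08 (1.39-fold, adjusted p = 0.0665), and the liver channel alone gave the same size (0.48). Within slides 1, 2 and 3 it was 0.66, 0.50 and 0.27.

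Tubg2, a gamma tubulin that nucleates microtubules, had 0.50 ± 0.08 (adjusted p = 0.063). Fbxo2, which marks glycoproteins for degradation, had 0.45 ± 0.07, and Ncaph, a subunit of the condensin that compacts mitotic chromosomes, 0.43 ± 0.07 (adjusted p = 0.063 for each). Cdsn, corneodesmosin of cornified epithelium, had 0.52 ± 0.09 and Zfp365 0.46 ± 0.08 (adjusted p = 0.063 and 0.0716). Some of these were close to the limit of detection in liver. Zfp365 was well above background on 1 of the 4 arrays at 12.5 mg/kg and gave 0.14 in the liver channel alone. Mei1, a meiosis gene, was well above background on 0 of the 4 and has no fold change, with 0.05 in the liver channel alone.

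Spaca9, named for the sperm acrosome, had the largest difference of the higher group, 0.87 ± 0.15 (adjusted p = 0.063), and differed most between slides. It stood at -1.13 on slide 3, -2.03 and -1.40 on slide 2 and -2.27 on slide 1, and was well above background on 2 of these 4 arrays. Without the slide 3 array (12.5 mg/kg replicate 1) the difference was 0.62.

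Of the genes lower at 12.5 mg/kg, Acsm3 had the smallest p. Acsm3 encodes a mitochondrial acyl-CoA synthetase for medium-chain fatty acids. It stood at 5.99 (slide 3), 5.62 and 4.85 (slide 2) and 5.95 (slide 1) at 12.5 mg/kg. At 6.25 mg/kg it was 6.50 and 6.40, 6.12 and 6.14, and 6.96, and at 25 mg/kg 6.48 and 6.47, 6.30 and 6.00, and 6.86. All 4 of the 12.5 mg/kg values lay below all 10 others. The difference was -0.80 ± 0.12, 1.74-fold lower, with an adjusted p of 0.0599. Its further probe gave -0.53 (adjusted p = 0.241), and the liver channel alone -0.49. Without replicate 3, the lowest array, it was -0.63.

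Crym encodes mu-crystallin, which binds thyroid hormone in the cytosol. It was 3.53 (slide 3), 3.94 and 3.82 (slide 2) and 4.91 (slide 1) at 12.5 mg/kg. At 6.25 mg/kg it was 4.75 and 4.30, 4.58 and 4.36, and 5.58, and at 25 mg/kg 4.90 and 4.76, 4.59 and 5.15, and 5.38. The slide 1 array overlapped values of the other slides and was lowest on its own. The difference was -0.84 ± 0.14 (1.79-fold lower, adjusted p = 0.063), and 1 control, on slide 3, was lower than every treated array (3.07).

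Cyp3a11, the main inducible P450 of the Cyp3a family in mouse liver and a target of the nuclear receptor PXR, had the largest difference among the 20 genes. It stood at 6.91 (slide 3), 6.48 and 6.95 (slide 2) and 8.53 (slide 1) at 12.5 mg/kg. At 6.25 mg/kg it was 8.52 and 7.74, 8.46 and 8.06, and 9.05, and at 25 mg/kg 8.05 and 8.40, 7.33 and 7.71, and 8.95. The difference was -1.03 ± 0.20 (2.04-fold lower, adjusted p = 0.0807), and -0.46, -1.17 and -1.26 within slides 1, 2 and 3. Its further probe gave -0.59 (adjusted p = 0.234). The controls had 8.49 ± 1.12 and, unlike most of the 20 genes, lay level with the other doses. Cyp3a16, a close relative whose signal may not be fully separate from that of Cyp3a11, had -0.89 ± 0.20 (adjusted p = 0.126).

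Abca6, a transporter of the ABC family, had -0.55 ± 0.09 (adjusted p = 0.063), but the liver channel alone gave -0.07 and the reference channel 0.27. Cyp4a31, a fatty acid hydroxylase of the PPAR alpha program and nearly identical to its Cyp4a neighbours, had -0.52 ± 0.11 (adjusted p = 0.112), and its further probes gave -0.23 and 0.014 (adjusted p = 0.409 and 0.979). Idh2, the mitochondrial isocitrate dehydrogenase, had -0.34 ± 0.07 (adjusted p = 0.112), and its liver channel alone gave -0.35. It differed by nearly the same on each slide (-0.36, -0.32 and -0.37). Wwp1, a ubiquitin ligase, had -0.40 ± 0.08 and Map3k21, a kinase, -0.45 ± 0.09 (adjusted p = 0.104 and 0.108). Kbtbd7 had -0.41 ± 0.08 and Shank3, a scaffold protein of synapses, -0.37 ± 0.07 (adjusted p = 0.0728 for each), and Shank3 was well above background on 1 of the 4 arrays at 12.5 mg/kg.

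**Figure D3:**
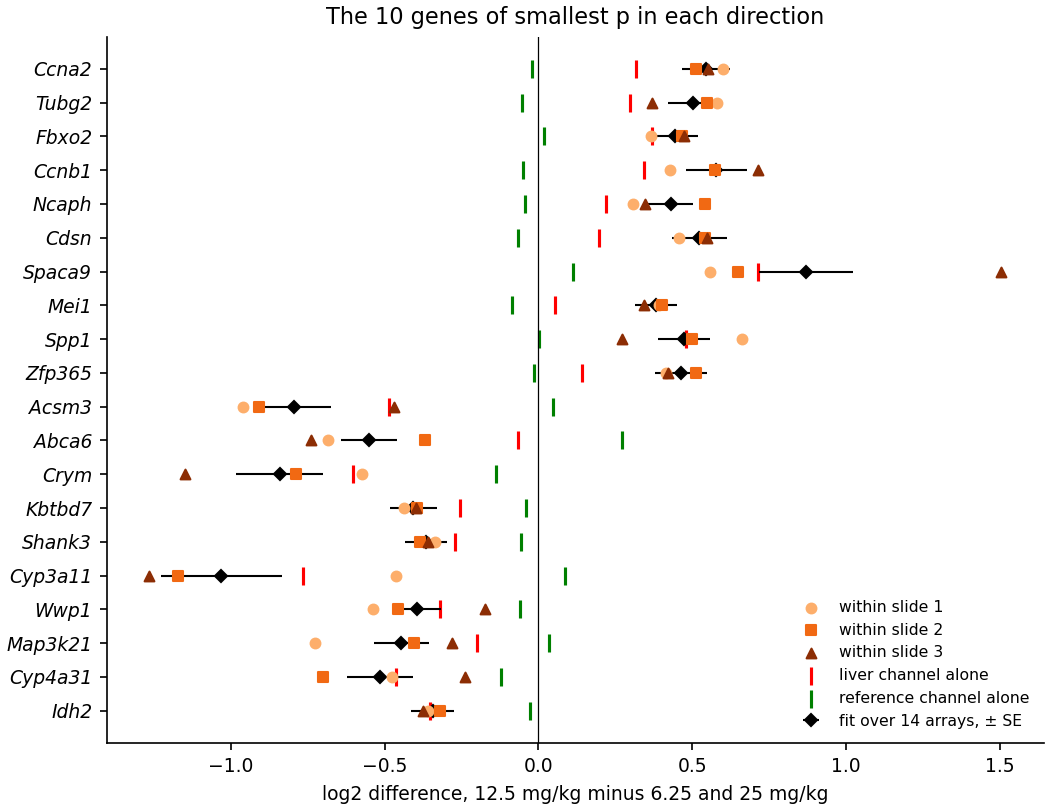
Log2 difference of 12.5 mg/kg minus 6.25 and 25 mg/kg (x axis) for the 10 genes of smallest p in each direction (y axis). Black diamonds with bars are the fit over 14 arrays ± SE, filled points the differences within slides 1, 2 and 3, and red and green ticks the liver and the reference channel taken alone. Each gene keeps its direction on all 3 slides, and the liver channel lies on the same side, from 0.05 to 0.71 for the higher group and from -0.77 to -0.07 for the lower.

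The 20 genes were chosen for small p-values, so their lack of overlap within slides (10 of 10 above and 10 of 10 below) follows largely from that choice. The controls took no part in that choice, but they are set against the same 10 other treated arrays, whose values did. The choice therefore also pulls the controls to the side of 12.5 mg/kg, and their side is no independent support. They stood on the same side as the 12.5 mg/kg arrays for most. Adjusted for slide, the control mean was above the mean of the 10 other treated arrays for all 10 genes of the higher group, by 0.14 to 0.59. It was below it for 9 of the 10 genes of the lower group, the exception being Cyp3a11 (0.01). The 12.5 mg/kg mean lay beyond the control mean for 19 of the 20, the exception being Ccnb1 (0.58 against 0.59). These are values of the same normalised ratios, and controls against 12.5 mg/kg were not tested.

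The direction of the difference followed a gene's level against the reference RNA. Among the 134 probes more than 4 log2 units below the reference, the median difference was 0.30, 66.4% were higher at an unadjusted p under 0.05 and 0% lower. Among the 1292 between -4 and -2 the median was 0.18, and 40.0% were higher. Above the reference the sign turned. The median was -0.10 for the 2247 probes between 1 and 2, -0.13 for the 1353 between 2 and 4 (20.6% lower) and -0.09 for the 805 above 4 (15.9% lower). In between, for 7932 probes from -1 to 0 and 10713 from 0 to 1, it was 0.00 and -0.03.

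Across the 27540 probes the difference correlated with the mean ratio in the other arrays at r = -0.37. This is across probes of the same arrays, which are not independent, and the mean ratio enters the difference itself. For 25 minus 6.25 mg/kg the correlation was 0.06, but it was taken with the mean ratio over all 14 arrays. Both doses enter that mean alike, so these correlations are not a like-for-like pair. By the medians above, liver-rich genes were less liver-rich and liver-poor genes less poor at 12.5 mg/kg, a narrower spread of ratios. Each array's slope on the mean profile of the 14 arrays was 0.972 ± 0.0782 at 12.5 mg/kg and 1.01 ± 0.0583 at the other doses. The within-slide difference was -0.0357 (exact permutation p = 0.0222, adjusted p = 0.037 over 5 measures). On slide 1 the slope was 1.059 at 12.5 mg/kg, against 1.104 and 1.101. The doses overlapped on slide 2 (0.935 and 0.883, against 0.928 to 0.969) and slide 3 (1.0105, against 1.0091 to 1.0310). Controls had 1.094 and 1.098 on slide 1, 0.955 and 0.910 on slide 2 and 0.997 on slide 3. Low slopes were thus not particular to 12.5 mg/kg. In the liver channel alone the medians were 0.08 under -4 and 0.00 from -4 to -2. They were -0.05 from 2 to 4 and -0.05 above 4. Quantile normalisation of that channel removes most differences in spread between arrays beforehand. These medians therefore cannot show whether the liver channel carries the narrowing.

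**Figure D4:**
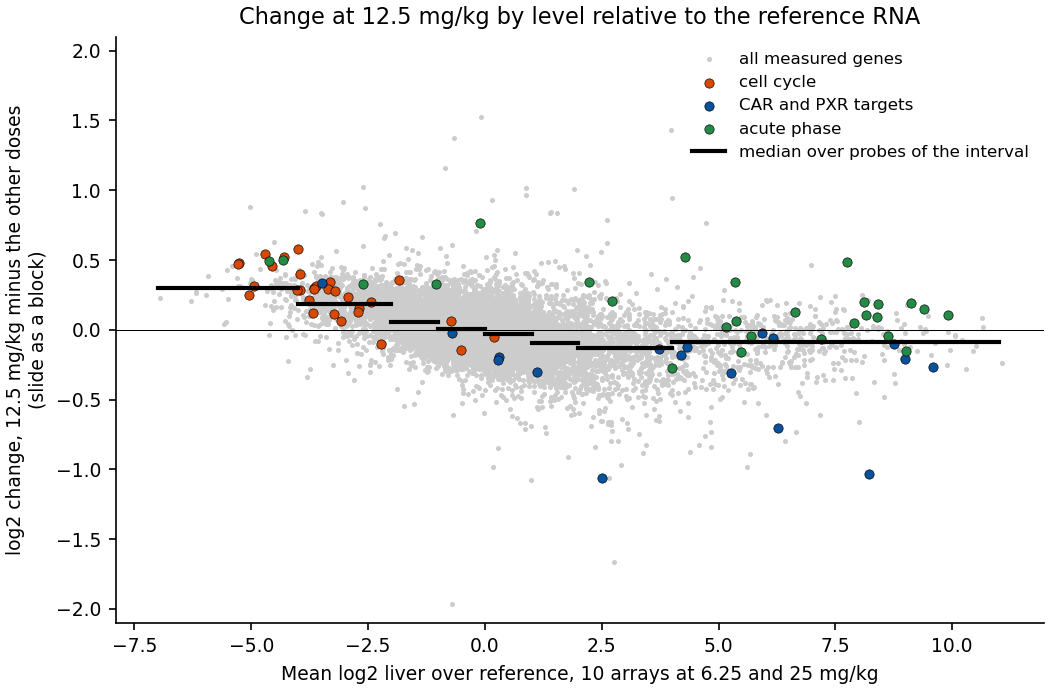
Log2 difference of 12.5 mg/kg minus the other doses (y axis) against the mean log2 ratio of liver over reference in the 10 other arrays (x axis) for 13327 genes (grey), with 3 gene lists in colour. Black bars are medians over the probes of an interval, from 0.30 under -4 to -0.13 between 2 and 4, and the cell cycle genes lie at the left end, where the grey cloud is also above 0.

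Brightness as a covariate beside slide left 2085 probes at an unadjusted p under 0.05, in place of 3428, and 0 passing. Dividing each array by its slope left 3007 and 0. Without the 12.5 mg/kg arrays of slide 1 and of the dimmer share on slide 2 (replicates 4 and 3) 2047 were left and 0 passed. These arrays are called dim by their share of spots well above background, not by median signal, and were picked after their values were seen. Hepatocyte identity was clear on every array, and all 13 measured of 15 hepatocyte markers were well above background on all 14 arrays, with a median ratio of 7.48 in the other arrays and a median difference of 0.02.

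Drug-metabolising genes, the first line of defence of liver against such compounds, were described by 3 lists. Targets of CAR and PXR, receptors that sense foreign chemicals, were lower for 16 of the 17 measured, with a median of -0.19, and 4 were lower at an unadjusted p under 0.05 (6.66% of all genes). The median was -0.13 without 25 mg/kg replicate 4. Beside Cyp3a11 these included Cyp2c37, a P450 (-0.31 ± 0.10, adjusted p = 0.229), and Sult1d1, a sulfotransferase (-0.70 ± 0.25, adjusted p = 0.277, and -0.42 without 12.5 mg/kg replicate 3). Gadd45b, a stress gene, was the member that was higher (0.34 ± 0.09, adjusted p = 0.165). Their median ratio in the other arrays was 4.32, where all probes were lower on balance.

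Targets of AhR itself numbered 20, of which 18 were measured, with 5 higher, 13 lower, 0 passing and a median of -0.12 (-0.072 without 12.5 mg/kg replicate 4). Cyp1a2, which oxidises aromatic amines and is a classic AhR target, did not differ beyond its error (0.03 ± 0.10, adjusted p = 0.93). Cyp1a1 was well above background on 1 array only, at 12.5 mg/kg, and was not tested. Aldh3a1, an aldehyde dehydrogenase under AhR control, was highest at 12.5 mg/kg, at -0.89 ± 0.17 against -1.22 ± 0.06 and -1.17 ± 0.11 (difference 0.28 ± 0.07, adjusted p = 0.151). Ahr itself had -0.36 ± 0.21 (adjusted p = 0.507), Fmo2, a flavin monooxygenase, -0.55 ± 0.26 (adjusted p = 0.402) and Ugt1a6b, a glucuronosyltransferase, -0.20 ± 0.09 (adjusted p = 0.388). Ugt1a6b shares most of its exons with its neighbours and could not be kept apart from them.

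Targets of Nrf2, the sensor of oxidative stress, went both ways, with 8 of 19 higher and 11 lower (median -0.06, and 0.054 without 12.5 mg/kg replicate 1). Hmox1, heme oxygenase 1, had 0.31 ± 0.08 (adjusted p = 0.151), and Cbr3, a carbonyl reductase, 0.26 ± 0.08 (adjusted p = 0.209). Gsta2, a glutathione transferase of liver, had -0.97 ± 0.29 (adjusted p = 0.206), with 1.62, 1.69, 2.21 and 2.27 on the arrays of slides 3, 2, 2 and 1 at 12.5 mg/kg, against means of 2.76 ± 0.56 and 3.06 ± 0.74. Txnrd1, thioredoxin reductase, had -0.19 ± 0.06 (adjusted p = 0.252).

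Lipogenesis genes were lower for 17 of 20 (median -0.14), though the list stood higher on slide 1 (0.16) and lower on slides 2 and 3 (-0.38 and -0.14). Srebf1, the transcription factor of fat synthesis, had -0.42 ± 0.19 (adjusted p = 0.378), Elovl6, a fatty acid elongase, -0.65 ± 0.27 (adjusted p = 0.325), and Fasn, fatty acid synthase, -0.48 ± 0.28 (adjusted p = 0.505). The list's median was -0.21 against 25 mg/kg and -0.07 against 6.25 mg/kg, and 0.32 between 25 and 6.25 mg/kg. It was -0.23 without 12.5 mg/kg replicate 4, and Fasn then had -0.85.

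PPAR alpha targets, which burn fatty acids, were lower for 14 of 24 (median -0.09), a share close to that over all genes. The median was -0.029 without 12.5 mg/kg replicate 1. In limma 5 were lower and 1 higher at an unadjusted p under 0.05, where 6.66 and 7.02% of all genes were. On every slide 2 lay below all other treated arrays, where 1.28% of all genes did. The list's median ratio in the other arrays was 2.01, and of all probes from 2 to 4 there, 20.6% were lower at that p and 3.70% lay below on every slide. Cyp4a10 had -0.39 ± 0.11 (adjusted p = 0.168) and Acadm, the medium-chain acyl-CoA dehydrogenase, -0.20 ± 0.07 (adjusted p = 0.241). Bile acid genes were lower for 15 of 20 (median -0.14), and 1 array decided this median, which was -0.017 without 12.5 mg/kg replicate 3. Baat, which joins bile acids to amino acids, had -0.38 ± 0.10 (adjusted p = 0.176), and Cyp7a1, the rate-limiting enzyme of bile acid synthesis, -0.98 ± 0.50 (adjusted p = 0.441). Cyp7a1 ranged from 2.99 to 5.63 on the 12.5 mg/kg arrays and from 3.87 to 7.25 at 6.25 mg/kg, so the ranges overlapped over most of their length. Without 12.5 mg/kg replicate 3 its difference was -0.65. Oxidative phosphorylation subunits were lower for 23 of 26, by a median of -0.10 (-0.051 without 12.5 mg/kg replicate 1), with Sdhc, a subunit of succinate dehydrogenase, at -0.23 ± 0.08 (adjusted p = 0.242).

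Genes with a sex difference in liver were read because growth hormone sets them and these animals were all male. Female-biased genes were lower for 12 of 14 measured (median -0.35), and none passed. The median was -0.18 without 12.5 mg/kg replicate 1. Cyp3a16, given above, leads this list too. Acot3 had -0.71 ± 0.33 (adjusted p = 0.402), and Cyp2g1 had -0.83 ± 0.46 (adjusted p = 0.486) with -3.31 on slide 1 and 0.46 on slide 3, and -0.053 without the slide 1 array (12.5 mg/kg replicate 4). Its sign turned in the liver channel alone, with brightness as a covariate and without the dim pair of arrays. Male-biased genes were higher for 14 of 21 (median 0.01). Gstp1, a glutathione transferase, had 0.40 ± 0.16 (adjusted p = 0.301), and Moxd1, a monooxygenase-like protein, 1.43 ± 0.64 (adjusted p = 0.377), over a range of 0.52 to 6.17 at 6.25 mg/kg.

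Pericentral hepatocyte genes, expressed around the draining vein, were lower for 15 of 18 (median -0.17), and periportal ones for 13 of 20 (median -0.11). The periportal median was -0.0067 without 12.5 mg/kg replicate 3. Lgr5, a receptor of the Wnt pathway in pericentral cells, had -0.84 ± 0.33 (adjusted p = 0.314). Its difference was -1.40 against 6.25 mg/kg (adjusted p = 0.139) and -0.28 against 25 mg/kg (adjusted p = 0.696). Avpr1a, the vasopressin receptor, had -0.42 ± 0.23 (adjusted p = 0.47), at 3.91 ± 0.39 against 4.58 ± 0.37 at 6.25 and 4.09 ± 0.33 at 25 mg/kg. Within slides 1, 2 and 3 its difference was -0.65, 0.08 and -1.08, and -0.16 without the slide 3 array (12.5 mg/kg replicate 1). For both, 12.5 mg/kg lay near 25 mg/kg and below 6.25 mg/kg. Asl, a urea cycle enzyme of periportal cells, had -0.36 ± 0.15 (adjusted p = 0.332). In whole tissue, fewer cells of a type and less RNA per cell cannot be told apart.

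The clock genes that the series turned on did not leave dose order in a way that held. Dbp, a clock output gene that encodes a transcription factor, averaged 0.91 ± 1.32 at 6.25, 1.72 ± 0.72 at 12.5 and 1.91 ± 0.92 at 25 mg/kg, with -1.80 ± 0.59 in controls. The difference of 12.5 mg/kg from both other doses was 0.33 ± 0.48 (adjusted p = 0.828). Usp2, a rhythmic deubiquitinase, averaged 0.51 ± 1.51, 1.05 ± 1.15 and 2.17 ± 0.63 (difference -0.26 ± 0.67, adjusted p = 0.91). Both were thus in dose order by their means, with SDs from 0.63 to 1.51 within a dose.

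Arntl, which encodes the activator BMAL1, averaged 0.08 ± 1.45, -0.74 ± 1.01 and -1.06 ± 0.76 at 6.25, 12.5 and 25 mg/kg (difference -0.26 ± 0.54, adjusted p = 0.886). Nfil3, a repressor that opposes Dbp, averaged 0.70 ± 0.50, 0.21 ± 0.25 and 0.09 ± 0.48 (adjusted p = 0.816). Nr1d2, a repressor of Arntl, averaged 1.18 ± 0.19, 1.26 ± 0.51 and 1.53 ± 0.32 (adjusted p = 0.953). Among the rest of the clock list Per2, a core repressor, had -0.74 ± 0.32 (adjusted p = 0.363) and Rora -0.29 ± 0.12 (adjusted p = 0.317). Of 18 measured clock genes 15 were lower and 3 higher (median -0.20), with medians of -0.26 against 25 mg/kg and -0.03 against 6.25 mg/kg. Single arrays decided this median, which was -0.039 without 12.5 mg/kg replicate 4 and -0.30 without replicate 1.

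Among p53 targets 17 of 26 were higher and 9 lower, 0 reached an unadjusted p under 0.05 and the median was 0.04, and -0.019 without 12.5 mg/kg replicate 2. Cdkn1a, which encodes the arrest protein p21, averaged -2.72 ± 1.04, -2.23 ± 0.42 and -2.08 ± 0.74 at 6.25, 12.5 and 25 mg/kg (difference 0.28 ± 0.37, adjusted p = 0.81). Aen, a nuclease, averaged -0.39 ± 0.24, 0.00 ± 0.41 and 0.30 ± 0.28 (difference 0.04 ± 0.22, adjusted p = 0.957). Ccng1 averaged -1.20 ± 0.55, -1.15 ± 0.46 and -0.88 ± 0.65 (adjusted p = 0.99). The means of these 3 genes were in dose order, and the middle dose fell close to midway for Aen. Klf13 (-0.04 ± 0.18, adjusted p = 0.95) and Cplane1 (0.50 ± 0.54, adjusted p = 0.754) were also in dose order by their means, at -0.04, 0.09 and 0.34 and at -0.62, 0.56 and 1.04. For Cdkn1a the difference was 0.66 and 0.72 on slides 1 and 2 and -0.78 on slide 3, and 0.70 without the slide 3 array (12.5 mg/kg replicate 1).

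Acute phase genes, which hepatocytes make under inflammatory signals, were higher for 21 of 27 (median 0.15), and 1 array decided this value. On slides 1, 2 and 3 the list's median was 0.01, -0.08 and 0.56, and without the slide 3 array (12.5 mg/kg replicate 1) it was 0.000805. On that array Lbp, the lipopolysaccharide-binding protein, stood at 3.01, against 1.95 to 2.31 on the other treated arrays of its slide. Mt1 and Mt2, metallothioneins that bind zinc, stood at -3.60 and -3.79 there. Over all arrays they had 0.50 ± 0.17 (adjusted p = 0.248) and 0.49 ± 0.13 (adjusted p = 0.151), and Lbp 0.34 ± 0.14 (adjusted p = 0.333). Without that array Lbp had 0.11, Mt1 0.33 and Mt2 0.26.

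Macrophage markers were higher for 14 of the 17 measured (median 0.16, and 0.29 in the liver channel alone), of 18 in the list. Without 25 mg/kg replicate 3 the median was 0.076. Their mean log2 ratio was 1.63 to 2.00 on the 12.5 mg/kg arrays, 1.64 to 1.85 at 6.25, 1.08 to 1.97 at 25 mg/kg and 1.38 to 2.68 in controls, so the groups overlapped. Cd14, a co-receptor for lipopolysaccharide, had 0.40 ± 0.10 (adjusted p = 0.138), Mpeg1, a pore-forming protein of macrophages, 0.34 ± 0.09 (adjusted p = 0.178), and Csf1r, their growth factor receptor, 0.35 ± 0.15 (adjusted p = 0.352). The further probe of Mpeg1 gave -0.06, and without 12.5 mg/kg replicate 1 the gene had 0.18. The further probes of Csf1r gave 0.07 and 0.20. Lymphocyte markers were higher for 11 of 15 measured of 20 (median 0.12, and 0.030 without 12.5 mg/kg replicate 4, range of the mean ratio -0.94 to -0.66 at 12.5 mg/kg and -1.03 to -0.67 at the others). Cd3e, a chain of the T cell receptor complex, had 0.36 ± 0.09 (adjusted p = 0.143). Whether these cells or the brightness of the arrays move the other lists was not tested.

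Of 14 neutrophil markers 6 were measured, with a median of 0.08. Of 17 pancreas, 13 adipose and 15 erythroid markers 6, 9 and 8 were measured, with medians of 0.04, -0.05 and -0.03. Stellate and fibroblast markers had a median of 0.02, endothelial ones -0.09 (16 of 20 lower) and cholangiocyte ones 0.12 (9 of 11 higher, Spp1 among them). Without 12.5 mg/kg replicate 1 the cholangiocyte median was 0.27, and without replicate 3 the endothelial one was -0.029. Ribosomal protein genes were higher for 24 of 27, by a median of 0.10, and cholesterol synthesis genes lower for 20 of 25 (-0.07). Without 6.25 mg/kg replicate 3 the first was 0.052, and without 12.5 mg/kg replicate 2 the second was 0.0057. For DNA repair, glucose metabolism, the unfolded protein response, interferon, immediate early and heat shock genes the medians ran from -0.16 to 0.07. Genes of microRNA processing, read because the study's title concerns microRNA, were lower for 13 of 17 by a median of -0.06, with Dicer1, the enzyme that cuts precursors, at -0.21 ± 0.08 (adjusted p = 0.316).

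**Figure D5:**
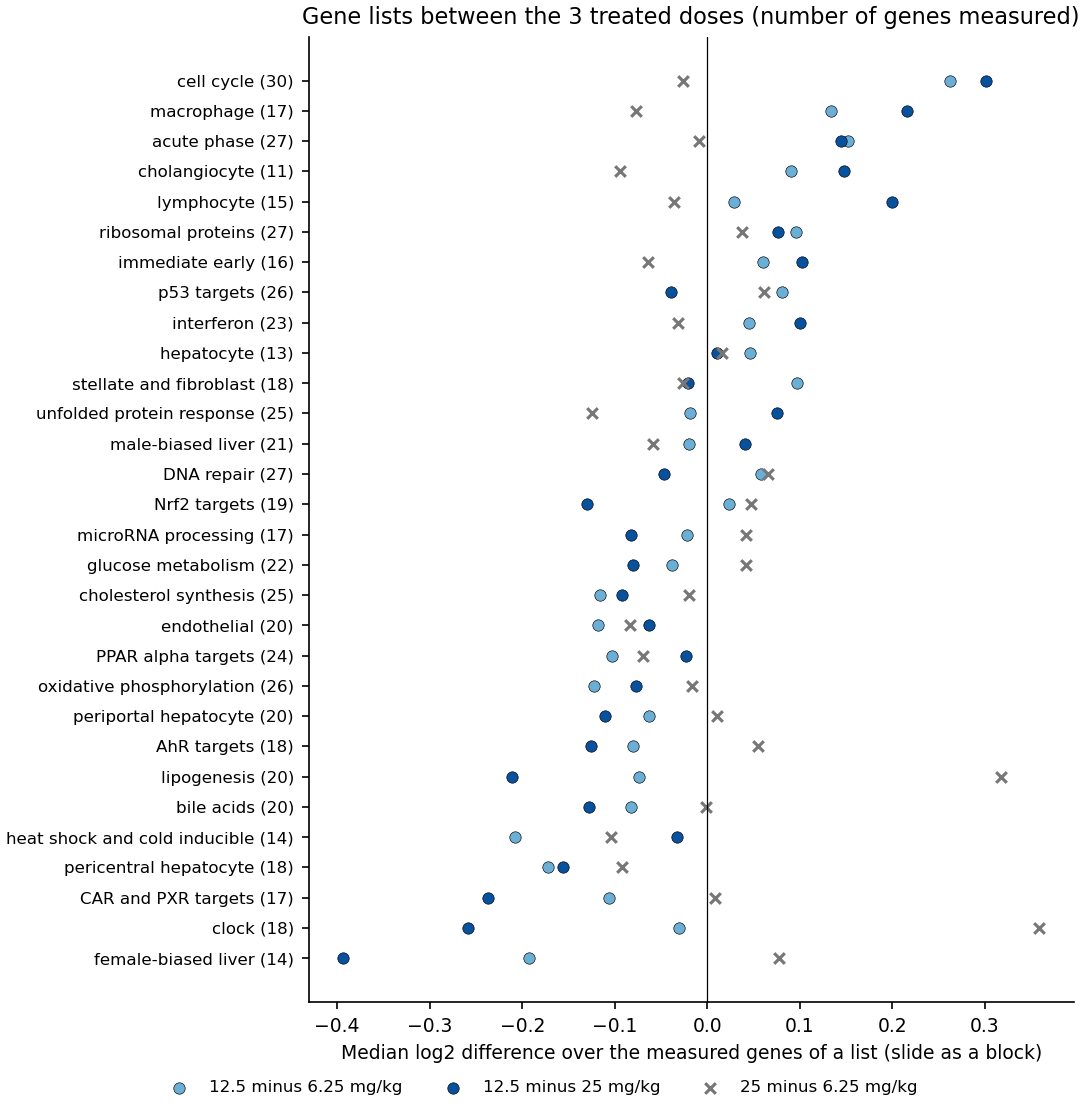
Median log2 difference (x axis) over the measured genes of each list shown (y axis, number of genes in brackets) for 12.5 minus 6.25 mg/kg (light blue), 12.5 minus 25 mg/kg (dark blue) and 25 minus 6.25 mg/kg (grey crosses), with slide as a block. Cell cycle genes lie at 0.26 and 0.30 against the doses on both sides and at -0.03 between them, while clock and lipogenesis genes differ most between 25 and 6.25 mg/kg (0.36 and 0.32). The light and dark points share the 12.5 mg/kg arrays.

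Some calls appeared under other settings. With the 5 controls in the fit as a group of their own, which adds arrays to the estimate of spread, 15 probes passed, 13 higher and 2 lower. Among them were Ccna2, Ccnb1, Ncaph, Spp1, Fbxo2, Spaca9, Zfp365, Acsm3 and Shank3. The 15 also included Bard1, the partner of Brca1 in DNA repair (0.41, adjusted p = 0.0458), Gpnmb, a glycoprotein of macrophages (0.44, adjusted p = 0.0408), and Mthfd1l, of mitochondrial folate metabolism (0.38, adjusted p = 0.0408), which were chosen after their values were seen. The scanner software's own processed signals gave 12 probes, all lower. At an unadjusted p under 0.05 they gave 508 higher and 2488 lower, against 1801 and 1627 above, so the balance between directions changed with the normalisation.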

How the data were processed

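Per the file headers, Feature Extraction 10.7.3.1 produced the red and green median spot intensity and local background of each array, and flags of spots well above background, which the deposited files carry as 0 or 1. The deposited table holds log2 ratios of liver over reference, and how it was made is not given in the sources used here. Its column medians ran from -0.04 to -0.02, and per array it correlated at 0.993 to 0.996 over gene spots with loess-normalised log2 red over green without background subtraction, which gives its scale and direction. It served as an alternative.

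Median signals were background corrected (normexp, offset 50) and loess normalised within arrays in limma 3.58.1 (R 4.3.3), with control spots at weight 0, spots marked as outliers (0.623%) missing, and spots of a probe averaged. Probes needed more than a share of 0.5 of spots well above background in liver on at least 4 of 14 arrays and at most 2 missing values. This filter can take in a probe through 1 dose alone. Channels taken alone were background corrected intensities, quantile normalised across the 14 treated arrays. Tests used lmFit and eBayes, two-sided, with slide as a fixed block. All arrays of a slide carry 1 scan time. Brightness was tested by exact permutation within slides, also in R. Motif shares and array outliers were computed in Python 3.11.15. The fit was tested on simulated data, where it recovered 97% of 100 changes of 1 on the log2 scale among 27047 probes, with 9 calls among unchanged probes. The simulated spread was independent between probes and held no difference in array brightness. Most differences given above were smaller than 1, and recovery at such sizes was not simulated. Where the labels name no separate cages or batches, p-values measure only the spread between these animals and their arrays, which cannot be told apart.

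Symbols came from RefSeq accessions (GRCm38.p6, names only), which named 47.4% of 55681 probes. The members and the 34 lists (696 genes, 611 measured) were chosen with earlier results of these data known. Named are the 10 genes of smallest p in each direction where fewer passed, the 4 members of smallest p of a list described, and 13 genes the series turned on, of which 1 list member is not reported here. Other settings were the block, background, normalisation, filter, prior, array weights, probe choice and each array left out.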

Additional observations from a re-analysis of the deposited data

Results flagged for a closer look

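In groups of 4 or 5 arrays, the highest or lowest array was compared with its nearest neighbour by Dixon's ratio at the 95% level, on log2 ratios adjusted for slide, for 99 measures in 3 groups. Of 297 tests 16 exceeded the limit, where chance gives about 1 in 20. The arrays at 12.5 mg/kg gave 8 of these, of which 4 were on replicate 1 (slide 3).

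On that array Usp2 stood at 3.16 (nearest other 12.5 mg/kg array 1.42) and Mpeg1 at 1.10 (0.68), each the highest. Arntl stood at -2.75 (-1.54) and Cdkn1a at -3.71 (-2.67), each the lowest. Usp2 and Arntl, both clock genes, were thus apart in this animal from the other 3 of its dose. Replicate 4 at 12.5 mg/kg (slide 1) was high for Gpam at 1.69 and Sdhd at 1.70 and low for Lgr5 at 1.29. Replicate 3 (slide 2) was low for Srebf1 at 1.96.

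At 6.25 mg/kg, replicate 1 was low for Ccna2 at -5.38 (nearest -5.11), replicate 3 high for Hadhb at 1.85, and replicate 4 high for Cyp4a10 at 6.02 and low for Gls2 at 5.47. At 25 mg/kg, replicate 3 was low for Abca6 at 5.30 (nearest 5.60) and high for Kbtbd7 at 1.68, replicate 4 was high for Glul at 5.98 and replicate 5 high for Spaca9 at -2.66 (nearest -3.00).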

How the results depend on the processing

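No paired analysis was possible because the sample numbers in the labels are all different, so no number is shared between doses. The call of no probe held under a random slide block, no slide block, quantile normalisation, the liver channel alone, a filter on all 14 arrays, a trended robust prior, array weights, brightness as a covariate, scaling by slope and the mean of dose means. Against both doses, probes passed with all 19 arrays in the fit (15), without background subtraction (6), with the scanner's processed signals (12), with the deposited ratios (3) and with no filter (48). Against 6.25 mg/kg 1 probe passed with all 19 arrays and 1 with processed signals, and against 25 mg/kg 8 passed with processed signals. Leaving out each array in turn gave 0 to 5, 0 to 1 and 0 to 2 probes, with 5 without 6.25 mg/kg replicate 2.

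Probes at an unadjusted p under 0.05 against both doses, 6.25 and 25 mg/kg numbered 1466, 1205 and 1085 with no slide block, 5947, 5270 and 5322 with no filter, and 2034, 1969 and 1722 with the filter on all 14 arrays. With brightness as a covariate they numbered 2085 and 1931 for the first pair of comparisons, and 2047, 1989 and 1978 without the dim pair of arrays, an alternative chosen after seeing the data, as was scaling by slope. Requiring 1.5-fold left 115. Leaving out each array gave 2554 to 3863, 2516 to 3506 and 2226 to 3189. The brightness difference was -0.088 for log2 median net signal (exact permutation p = 0.396), -8.27 without slide strata and -9.59 to -4.60 leaving out each array. The cause of these changes was not tested.

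Of 98 genes, some turned sign. With brightness as a covariate these were Usp2 (0.40), Nr1d2 (0.32), Aen (-0.22), Cdkn1a (-0.21), Ccng1 (-0.056), Acox2 (0.0097), Cyp2g1 (0.66), Ptprc (-0.033) and Ddx5 (0.033). Without the dim pair they were Usp2 (0.32), Nr1d2 (0.25) and Cyp2g1 (0.15). In the liver channel they were Klf13 (0.022), Ccng1 (-0.042), Cyp1a2 (-0.14), Plk2 (-0.0026), Cyp2g1 (0.21) and Cd3g (-0.042). With processed signals they were Klf13 (0.027), Ccng1 (-0.017), Cd3g (-0.12) and Ptprc (-0.012). Scaling by slope turned Nr1d2 (0.0043), Ccng1 (-0.042) and Acox2 (0.0031). Quantile normalisation turned Nr1d2 (0.025) and Ccng1 (-0.069). Array weights turned Aen (-0.0095) and Ccng1 (-0.022). No slide block turned Ccng1 (-0.11). A random block turned Ccng1 (-0.017). Leaving out each array gave ranges that crossed 0, of -0.94 to 0.017 for Usp2, -0.22 to 0.085 for Nr1d2, -0.40 to 0.21 for Arntl, -0.085 to 0.15 for Aen, -0.10 to 0.039 for Klf13, -0.051 to 0.059 for Ccng1 and -0.064 to 0.14 for Cyp1a2.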
